A study of Danio rerio with 4 samples.

Results

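Nuclear pores and the carriers that pass through them were followed across 4 zebrafish libraries as 47 genes: 21 nucleoporins, 7 importin alpha genes, 12 importin beta and transportin genes and 7 exportins. They were chosen by gene symbol (nup, ipo and xpo with a number, xpot, kpna, kpnb and tnpo) and by a mean FPKM of at least 1 over the 4 libraries. The deposited table has 31870 rows, of which 26099 had a symbol. In all 48 symbols met the rule, and 47 of these passed the filter on low values. The gene nearest inside the filter was nup214, with a mean of 3.23 FPKM, and the 1 gene outside it was ipo13a, with a mean of 0.36 FPKM and between 0.20 and 0.56 FPKM in the 4 libraries. FPKM counts fragments per kilobase of gene, scaled to the size of the library, so levels of different genes can be set beside each other.

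The libraries hold total RNA, depleted of ribosomal RNA, of whole embryos of 2 genotypes, wild type (WT) and maternal ybx1 mutant (Mybx1), at 0 and 6 hours post fertilisation (hpf). The product of ybx1 is an RNA-binding protein with a cold-shock domain. Each of the 4 groups has 1 library, so no comparison has a replicate check and no p-value was computed. The sources used here do not give the allele, the strain, the cross or the size of the embryo pool.

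The nuclear pore complex is a ring of nucleoporins set in the nuclear envelope. A Y-shaped subcomplex and an inner ring form the frame, and nucleoporins rich in phenylalanine-glycine repeats fill the channel. Importin alpha binds the classical nuclear localisation signal of a cargo and enters with importin beta, other importins and transportins bind their cargo directly, and exportins carry cargo out, all driven by the GTPase Ran. A cleaving embryo forms many new nuclei before its own genome is active, with pores and carriers made from what the mother left in the egg.

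Library totals recovered from the FPKM steps ran from 6042830 to 7570070 reads. The smallest whole read numbers that fit the members' values were between 4 and 9854, with at least 100 in every library for 40 of the 47. The true number of reads can be a multiple of these, and the counting intervals below are then too wide. The mutated gene ybx1 stood at 338 FPKM in WT and 11.9 in Mybx1 at 0 hpf, and at 2287 and 54.2 FPKM at 6 hpf. The 8 egg markers summed to 6643 FPKM in WT and 6212 in Mybx1 at 0 hpf. At 6 hpf the sums were 153 and 3330.5 FPKM. At 0 hpf 2 of the 8 were lower in Mybx1 by at least 1 on log2(FPKM + 1), beside 6.03% of rows with a mean FPKM of at least 1. These were zp3b, at 354 FPKM in WT and 121 in Mybx1, and zp2.1, at 3.84 and 1.12. At 6 hpf 6 of the 8 were higher in Mybx1 by that measure, beside 39.6% of those rows. The 7 gastrula markers found in the table summed to 0.94 and 2.12 FPKM at 0 hpf, and to 2296 in WT and 22.4 in Mybx1 at 6 hpf. The library labelled Mybx1 at 6 hpf thus held more egg RNA and less gastrula RNA than that of WT, and the part of this in the differences below was not tested. The 6 follicle cell markers found summed to at most 1.74 FPKM in any library, the 3 of sperm and testis to at most 1.03, and of the 2 blood markers found 1 was above 0, cahz, at 15.4 FPKM in WT at 6 hpf.

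The members were abundant transcripts. The median over the 47 of their mean FPKM was 46.3, against 12.6 over the 15376 rows of the table with a mean of at least 1, and 42 members lay above that second value. Summed over members, the level was 3775 FPKM in WT and 3264 in Mybx1 at 0 hpf, and 3448 and 2771 FPKM at 6 hpf. With FPKM scaling 28 of the 47 members stayed within 2-fold in all 4 comparisons, among them 18 of the 21 nucleoporins. The other 19 were past 2-fold in at least 1 comparison, against 76.2% of all rows. These counts depend on the scaling. With median-ratio scaling, described below, 16 members rose in WT over time and 22 were lower in Mybx1 than in WT at 6 hpf. A gene was called higher or lower, and is said to have risen or fallen over time, where log2(FPKM + 1) differed by at least 1 between 2 libraries. A fold given for 1 gene is a ratio of FPKM without the added 1, and the ranges beside it are exact 95% intervals for counting error only.

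**Figure D1:**
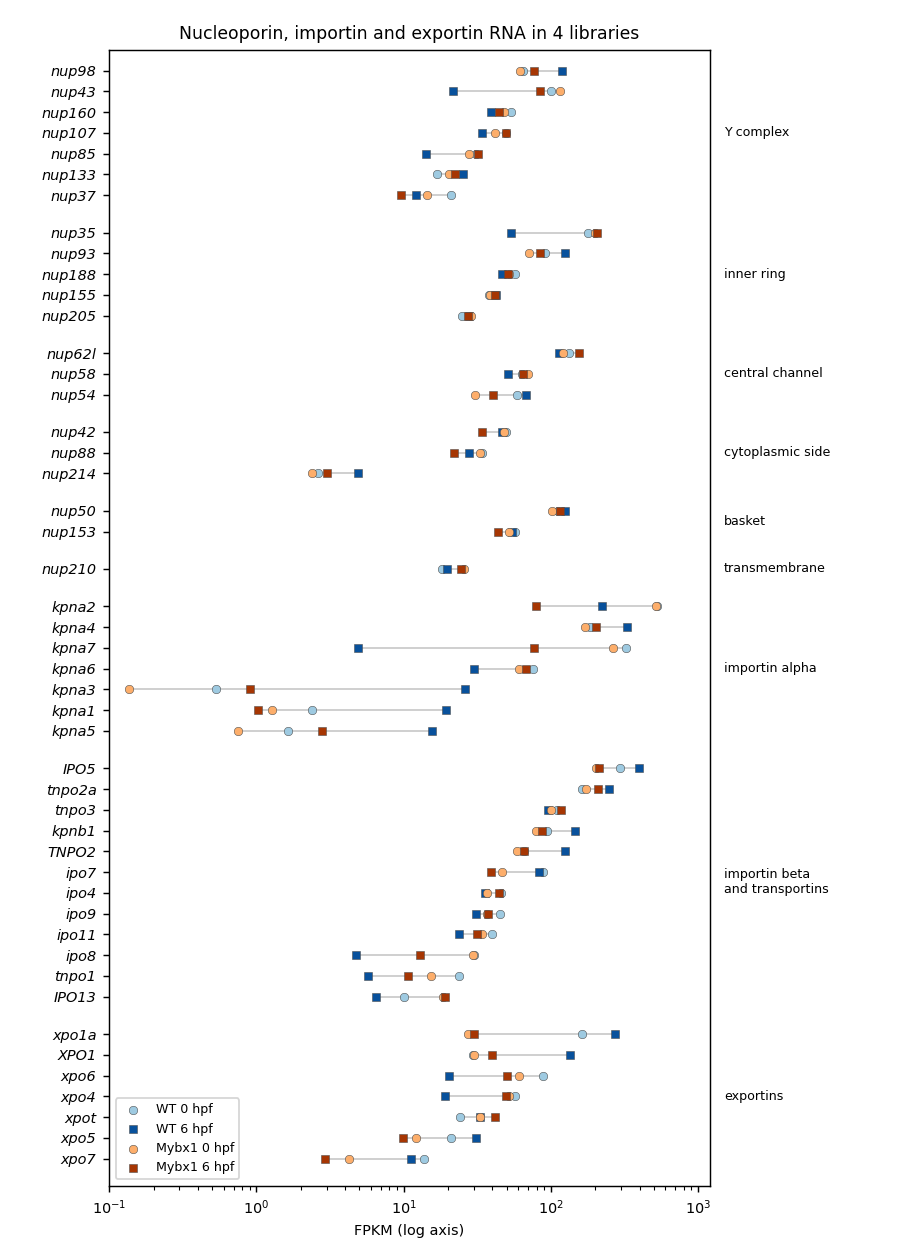
FPKM (log axis) of each of the 47 genes in the 4 libraries, grouped by role and ordered within a role by mean FPKM; each point is 1 library and the grey line joins the lowest and the highest. Most nucleoporins hold their 4 points close together, while kpna7, kpna3, kpna1 and kpna5 spread widest.

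From 0 to 6 hpf in WT, 4 members rose and 10 fell. Over all 15376 rows 21.4% rose and 40.9% fell, beside 8.51% and 21.3% of members. With median-ratio scaling, described below, the share that rose was instead larger among members, with 16 of 47 beside 4612 of 15376 rows. From 0 to 6 hpf in Mybx1, 1 member rose and 3 fell, against 7.81% and 6.78% of all rows, and 43 of 47 stayed within 2-fold. Between the eggs no member was higher in Mybx1 and 2 were lower, against 8.2% and 6.03% of all rows. With median-ratio scaling 4 were lower, against 6.59% of all rows. At 6 hpf Mybx1 was above WT in 9 members, beside 39.6% of all rows, and below it in another 9, beside 19.1%. The comparison at 6 hpf shares the WT library with the WT time comparison and the Mybx1 library with the Mybx1 time comparison, so its values are not independent of theirs.

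**Figure D2:**
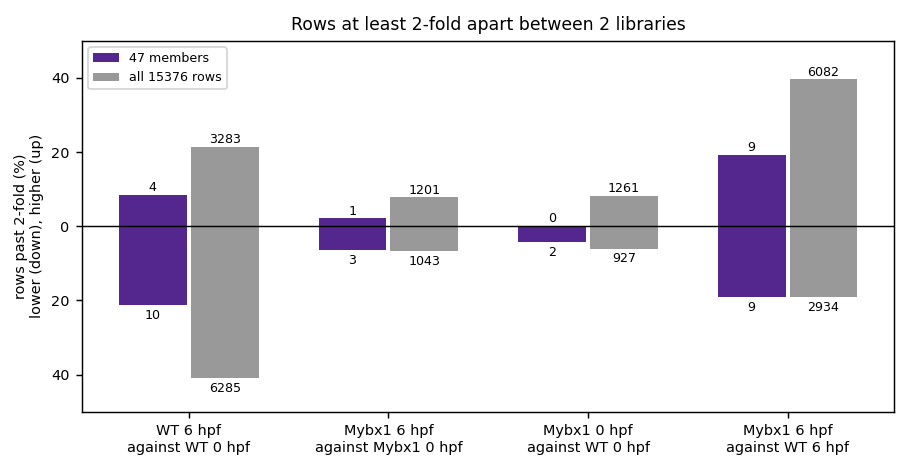
Share of rows (%) at least 2-fold higher (up) or lower (down) on log2(FPKM + 1) in each of the 4 comparisons, for the 47 members and for all 15376 rows; the number over or under a bar is the count of rows. With FPKM scaling, plotted here, the members' bars are shorter than those of all rows everywhere except for lower levels in Mybx1 at 6 hpf, where 9 of 47 members stand beside 2934 of 15376 rows.

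The counts in the comparisons that use WT at 6 hpf depended on how the libraries were scaled. The median change of the members in WT was -0.09 on the log2 scale, against -0.61 over all rows. With median-ratio scaling, which takes the typical gene as unchanged, the all-row median became -0.02 and that of the members 0.64, with 16 members higher and 5 lower at 6 hpf, against 4612 and 4308 of the 15376 rows. Higher rows were then 51.7% rather than 34.3% of all called rows. The median difference at 6 hpf between Mybx1 and WT was -0.10 for members and 0.58 for all rows with FPKM, and -0.86 and -0.06 with median-ratio scaling, with 3 members higher and 22 lower in Mybx1. All rows gave 26.1% higher and 30.2% lower with that scaling, so the 22 lower members stood above the share of all rows, whereas with FPKM the 9 lower members were level with it. Higher rows were 46.4% rather than 67.5% of all called rows. Relative to the median of all rows the members lay 0.52 above it in WT over time and 0.68 below it in Mybx1 against WT at 6 hpf with FPKM, and 0.66 above and 0.80 below with median-ratio scaling. Shares of a gene within its family, and the order of genes in a library, do not depend on this choice. Calls of single genes below are with FPKM scaling unless another is named. Rising past 2-fold in WT with median-ratio scaling only were nup93, nup98, nup133, nup214, kpna4, kpnb1, IPO5, TNPO2, tnpo2a, xpo1a, xpo5 and xpot. The added members lower in Mybx1 at 6 hpf were nup37, nup42, nup54, nup88, nup93, nup98, nup153, nup214, kpna4, kpnb1, IPO5, TNPO2 and tnpo2a. Between the eggs they were nup54 and ipo7.

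Of the 19 members past 2-fold in any comparison with FPKM scaling, 3 were nucleoporins. Nucleoporin RNA, summed over the 21 genes, was 1254 FPKM in WT at 0 hpf, 1071 in WT at 6 hpf, 1201 in Mybx1 at 0 hpf and 1231 in Mybx1 at 6 hpf. With FPKM scaling 3 of the 21 fell in WT over time, nup43, nup35 and nup85, and none rose, against 40.9% and 21.4% of all rows. With median-ratio scaling nup93, nup98, nup133 and nup214 rose, and the falls of nup35 and nup85 were not called. At 6 hpf 3 were higher in Mybx1 and none lower with FPKM scaling, against 39.6% and 19.1% of all rows. With median-ratio scaling nup37, nup42, nup54, nup88, nup93, nup98, nup153 and nup214 were lower there. In Mybx1 none of the 21 was past 2-fold over time, with log2 changes between -0.57 and 0.40. None was past 2-fold between the eggs with FPKM scaling, with differences between -0.93 and 0.48. Most rows did likewise, with 85.4% of all rows within 2-fold in Mybx1 over time and 85.8% between the eggs.

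The Y complex, the frame of the outer rings, had 7 members with a median between 25.4 and 49.9 FPKM in a library. The WD-repeat subunit nup43 stood at 99.5 FPKM in WT at 0 hpf, 21.6 in WT at 6 hpf, 115 in Mybx1 at 0 hpf and 83.7 in Mybx1 at 6 hpf. It fell 4.60-fold in WT (3.83 to 5.56) and was 3.87-fold higher in Mybx1 than in WT at 6 hpf (3.20 to 4.71). Only the WT library at 6 hpf was low for nup43, the other 3 lying within 2-fold of each other. The lowest library was also WT at 6 hpf for nup85, which was at 30.9 and 14.2 FPKM in WT and at 27.6 and 31.7 in Mybx1, at 0 and 6 hpf. It fell 2.18-fold in WT (1.79 to 2.66), a call lost with median-ratio scaling (log2 -0.37) and with a pseudocount of 5 (-0.90). At 6 hpf it was 2.23-fold higher in Mybx1 (1.82 to 2.75), a call also lost under both settings (0.38 and 0.94).

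The other 5 genes of the Y complex stayed within 2-fold in all comparisons with FPKM scaling. The gene nup98, whose product is cleaved into a channel protein and the frame protein Nup96, was at 64.7 and 118 FPKM in WT and at 61.9 and 77.0 in Mybx1. Its level in WT at 6 hpf was 1.83-fold that of the egg (1.73 to 1.93). It was the highest of the 7 in that library, and nup43 was the highest in the other 3. The stalk subunit nup160 was at 53.5 and 39.0 FPKM in WT and at 48.3 and 44.3 in Mybx1. Over the 4 libraries its partners nup107 and nup133 ranged from 34.2 to 49.9 and from 16.7 to 25.4 FPKM, and the WD-repeat subunit nup37 from 9.59 to 21.0.

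In the inner ring, nup35, a membrane-binding subunit, was the most abundant gene in 3 libraries and not in the fourth. Its FPKM was 179 in WT at 0 hpf, 53.6 in WT at 6 hpf, 199 in Mybx1 at 0 hpf and 206 in Mybx1 at 6 hpf. It fell 3.35-fold in WT (2.96 to 3.80), a call just missed with median-ratio scaling (log2 -0.996), and was 3.85-fold higher in Mybx1 than in WT at 6 hpf (3.40 to 4.38). As a share of the FPKM of the 5 inner ring genes, nup35 held 45.9% at 0 hpf and 18.1% at 6 hpf in WT, beside 51.0% and 50.3% in Mybx1. The scaffold gene nup93 took the lead in WT at 6 hpf, with 42.5% of that sum at 126 FPKM, from 23.3% at 91.1 FPKM in the egg, and it was at 71.3 and 84.0 FPKM in Mybx1. The large scaffold gene nup188 was at 57.4 and 46.4 FPKM in WT and at 51.9 and 50.8 in Mybx1. Its relative nup205 ranged from 24.9 to 28.9 FPKM over the 4 libraries, and the scaffold gene nup155 from 37.7 to 42.3.

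With FPKM scaling the genes of the channel, the cytoplasmic side and the basket showed no call. Under median-ratio scaling nup42, nup54, nup88, nup153 and nup214 were lower in Mybx1 than in WT at 6 hpf, and nup214 rose in WT. The channel nucleoporin nup62l was at 132 and 113 FPKM in WT and at 120.1 and 154 in Mybx1, and its partner nup58 at 63.3 and 50.7 and at 69.8 and 64.3. Their other partner, nup54, was at 59.2 and 68.1 FPKM in WT and at 30.5 and 40.7 in Mybx1, 1.94-fold lower in the mutant egg (1.66 to 2.28). Both Mybx1 libraries were thus below both WT libraries for nup54, short of the threshold with FPKM scaling but past it with median-ratio scaling. The basket gene nup50 was at 111 and 125 FPKM in WT and at 101 and 116 in Mybx1, and nup153 at 57.5 and 54.7 and at 51.7 and 43.9. For nup62l, nup58, nup50 and nup153 the highest and the lowest FPKM were within 2-fold of each other. On the cytoplasmic side nup42 was at 49.6 and 46.9 FPKM in WT and at 47.9 and 34.0 in Mybx1, and nup88 at 34.0 and 27.7 and at 32.9 and 21.8. For both genes Mybx1 at 6 hpf was the lowest library. The lowest nucleoporin of all was nup214, part of the cytoplasmic filaments, at 2.61 and 4.89 FPKM in WT and at 2.38 and 3.04 in Mybx1. The membrane-spanning nup210 was at 18.3 and 19.7 FPKM in WT and at 25.8 and 24.7 in Mybx1.

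With FPKM scaling all 7 importin alpha genes but kpna4 were past 2-fold in at least 1 comparison, beside 76.2% of all rows. These adaptors fall into a clade of kpna2 and kpna7, a clade of kpna3 and kpna4 and a clade of kpna1, kpna5 and kpna6, and in mammals kpna7 is known as an oocyte form. In WT 3 of the 7 rose and 3 fell over time with FPKM scaling, against 21.4% and 40.9% of all rows. With median-ratio scaling kpna4 rose too, and the falls of kpna2 and kpna6 were not called. In Mybx1 1 rose and 2 fell, against 7.81% and 6.78% of all rows. At 6 hpf 2 were higher and 4 lower in Mybx1 than in WT, against 39.6% and 19.1% of all rows. Counted in both the rises in WT and the lower levels at 6 hpf, kpna3 passed the filter on low values through WT at 6 hpf alone. It was at 26.2 FPKM there, beside 0.53 in WT at 0 hpf and 0.14 and 0.91 in Mybx1. Both directions for kpna3 thus follow from the filter and carry no weight of their own. Between the eggs none was past 2-fold on log2(FPKM + 1), where 85.8% of all rows stayed within it. As ratios of FPKM without the added 1, kpna3 and kpna5 were past 2-fold lower in the mutant egg, both at low levels. For kpna3 the values were 0.53 FPKM in WT and 0.14 in Mybx1 (interval of the fold 1.24 to 15.9). For kpna5 they were 1.64 and 0.74 FPKM (1.23 to 4.06). All 7 differences on log2(FPKM + 1) were below 0, from -0.60 to -0.02.

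**Figure D3:**
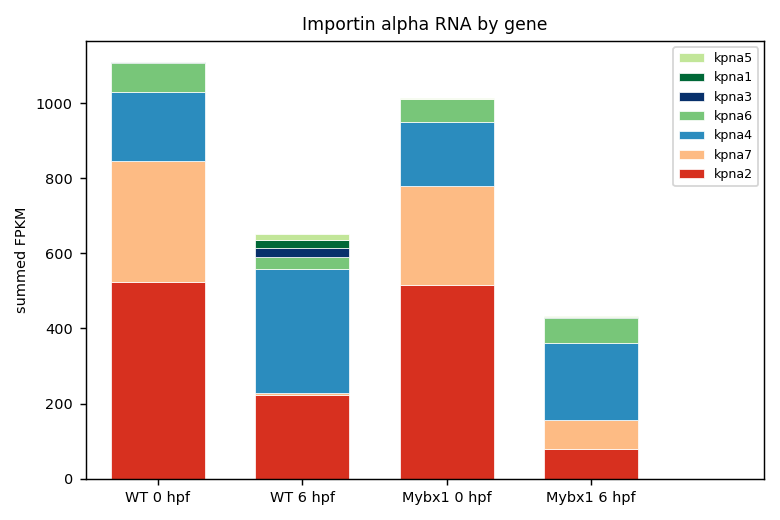
Summed FPKM of the 7 importin alpha genes in each library, stacked by gene. At 0 hpf kpna2 and kpna7 make up 76.3% of the sum in WT and 77.0% in Mybx1; at 6 hpf kpna4 is the largest part in both genotypes, kpna7 is almost gone in WT and still 17.9% in Mybx1.

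The egg form kpna7 was at 324 FPKM in WT at 0 hpf, 4.87 in WT at 6 hpf, 264 in Mybx1 at 0 hpf and 77.2 in Mybx1 at 6 hpf. It fell 66.5-fold in WT (50.7 to 88.9), and 15 of 15376 rows fell further on the log2 scale. In Mybx1 it fell 3.42-fold (3.17 to 3.70), which left it 15.8-fold above WT at 6 hpf (12 to 21.3).

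Its close relative kpna2 behaved otherwise. With 523 FPKM in WT and 516 in Mybx1 it was the most abundant member in either egg, and by 6 hpf the values were 223 FPKM for WT and 79.3 for Mybx1. In WT it fell 2.34-fold (2.23 to 2.46), a call lost with median-ratio scaling (log2 -0.49). The fall in Mybx1 was 6.51-fold (6.03 to 7.02). At 6 hpf kpna2 was therefore 2.82-fold lower in Mybx1 than in WT (2.59 to 3.06). Only 10 of 15376 rows fell further than kpna2 in Mybx1. With FPKM scaling 774 rows fell in both genotypes. In 6 of these, kpna2 among them at -1.46, the log2 change was lower in Mybx1 than in WT by at least 1. In 433 it was higher by at least 1. These counts were not repeated with median-ratio scaling, under which kpna2 did not fall past 2-fold in WT. Both other members that fell in both genotypes, kpna7 and ipo8, had the order more usual with FPKM scaling, with log2 changes 4.03 and 1.31 higher in Mybx1.

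The remaining egg adaptor of moderate level, kpna6, was at 75.7 and 29.9 FPKM in WT and at 60.3 and 67.4 in Mybx1. It fell 2.53-fold in WT (2.19 to 2.93), a call lost with median-ratio scaling (log2 -0.59). At 6 hpf it was 2.25-fold higher in Mybx1 (1.94 to 2.62), with the WT library at 6 hpf as the 1 low value, and that call was lost too (0.40).

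The 3 adaptors that rose in WT were near 0 in the egg. In WT kpna3 went from 0.53 to 26.2 FPKM (49.5-fold, 30.3 to 87.1), kpna1 from 2.39 to 19.5 (8.18-fold, 6.19 to 11.0) and kpna5 from 1.64 to 15.7 (9.59-fold, 6.91 to 13.6). In Mybx1 these genes were at 0.14 and 0.91, 1.28 and 1.03, and 0.74 and 2.80 FPKM, and kpna5 alone was past the threshold, 3.76-fold up (2.18 to 6.80) at a low level. That call was lost with a pseudocount of 5. The rise of kpna3 in Mybx1, from a smallest read number of 4, was 6.65-fold as a ratio (2.26 to 26.5) but 0.75 on the log2(FPKM + 1) scale. At 6 hpf all 3 were lower in Mybx1, kpna3 28.7-fold (18.8 to 46.2), kpna1 18.9-fold (12.1 to 31.3) and kpna5 5.60-fold (4.21 to 7.58). In such whole-embryo RNA, fewer cells that use a gene and less of its RNA per cell cannot be told apart.

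The most abundant adaptor at 6 hpf was kpna4 in both genotypes, at 331 FPKM for WT and 204 for Mybx1, from 183 and 170 in the egg. Its ratio over time was 1.81 in WT (1.72 to 1.90) and 1.19 in Mybx1 (1.12 to 1.27), both short of the threshold. With median-ratio scaling kpna4 was past the threshold in WT. As a share of importin alpha FPKM, kpna4 held 16.5% and then 50.9% in WT, beside 16.8% and then 47.1% in Mybx1. The joint share of kpna2 and kpna7 was 76.3% and then 35.1% in WT, beside 77.0% and then 36.2% in Mybx1. The make-up differed in the rest: in WT at 6 hpf kpna2 held 34.3% (33.2 to 35.4, approximate 95% counting interval), kpna7 0.75% (0.55 to 0.95) and kpna1, kpna3 and kpna5 together 9.43%, whereas in Mybx1 kpna2 held 18.3% (17.2 to 19.5), kpna7 17.9% (16.7 to 19.0), kpna6 15.6% and those 3 genes 1.1%. The genes kpna1, kpna3 and kpna5 were grouped because they rose in WT, so the contrast in their joint share follows from that choice. Of their sum in WT at 6 hpf, 42.6% was kpna3, which passed the filter on low values through that library alone. Summed importin alpha RNA was 1110.5 FPKM in the WT egg and 651 in WT at 6 hpf. For Mybx1 it was 1013 FPKM in the egg and 432 at 6 hpf.

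**Figure D4:**
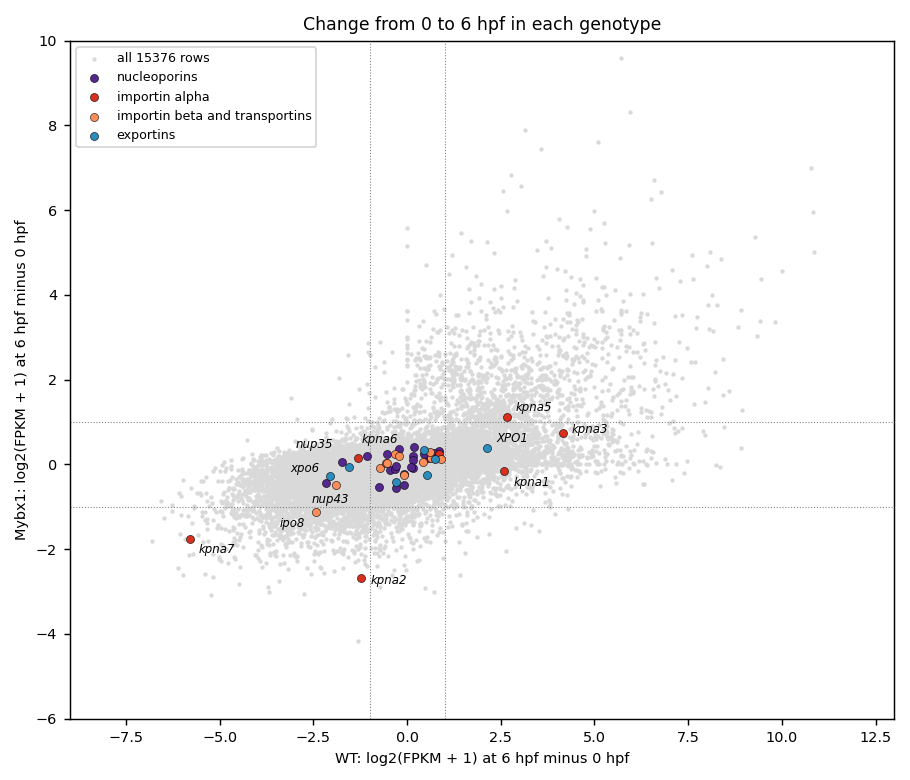
Change in log2(FPKM + 1) from 0 to 6 hpf in WT (x axis) and in Mybx1 (y axis), 1 point per gene, with all 15376 rows in grey and dotted lines at 2-fold. Most members lie between the dotted lines on the y axis, among them most of those past 2-fold in WT. Each member beyond those lines on the y axis was past 2-fold in the same direction in WT. The point of kpna2 lies far below, with a smaller fall in WT than kpna7.

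Among importin beta genes and transportins, 2 of 12 fell in WT and none rose with FPKM scaling, against 40.9% and 21.4% of all rows. With median-ratio scaling kpnb1, IPO5, TNPO2 and tnpo2a rose. The SMAD-binding importin gene ipo8 was at 30.2 and 4.76 FPKM in WT and at 29.6 and 13 in Mybx1. In WT it fell 6.35-fold (5.20 to 7.83), and the fall in Mybx1 was 2.28-fold (1.99 to 2.62), the latter lost with a pseudocount of 5 (log2 -0.94). At 6 hpf it was 2.73-fold higher in Mybx1 (2.18 to 3.43), a call lost with a pseudocount of 5 (0.88) and with median-ratio scaling (0.62). Transportin gene tnpo1, whose product carries hnRNP proteins, was at 23.8 and 5.69 FPKM in WT, a 4.18-fold fall (3.58 to 4.90), and at 15.5 and 10.6 in Mybx1. For both genes WT at 6 hpf was the lowest of the 4 libraries.

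With FPKM scaling the partner of importin alpha, kpnb1, stayed within 2-fold throughout, at 94.3 and 146 FPKM in WT and at 79.1 and 87.2 in Mybx1. So did IPO5, an importin of ribosomal proteins and the most abundant gene of this family, at 296 and 398 FPKM in WT and at 203 and 211 in Mybx1. The row listed as TNPO2 was at 65.6 and 124 FPKM in WT and at 59.3 and 65.2 in Mybx1, and tnpo2a, its other copy, at 164 and 249 in WT and at 172 and 209 in Mybx1. All 4 of these genes had their highest value in WT at 6 hpf. The importin of SR splicing factors, tnpo3, was at 111 and 95.6 FPKM in WT and at 101 and 116 in Mybx1. Over the 4 libraries ipo4 and ipo9, which carry histones, ranged from 35.9 to 45.5 and from 30.9 to 45.2 FPKM, and ipo11, a carrier of ubiquitin-conjugating enzymes, from 23.8 to 39.7.

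Another 2 members of this family differed between genotypes at 6 hpf. The gene ipo7, a relative of ipo8, was at 88.9 and 83.6 FPKM in WT and at 46.3 and 39.0 in Mybx1, both mutant values below both WT values. It was 2.14-fold lower in Mybx1 at 6 hpf (1.97 to 2.33), a call lost with TPM (log2 -0.86), and 1.92-fold lower in the mutant egg (1.79 to 2.06). IPO13, an importin that can also export, was at 10.1 and 6.5 FPKM in WT and at 18.6 and 19.1 in Mybx1. It was 2.93-fold higher in Mybx1 at 6 hpf (2.41 to 3.59), a call lost with median-ratio scaling (0.73), and 0.82 higher on the log2 scale in the egg. For both genes the 0 hpf difference had the direction of that at 6 hpf but was short of the threshold with FPKM scaling. With median-ratio scaling ipo7 was past the threshold in the egg too.

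The largest difference between the eggs among the 47 members was in an exportin. The gene xpo1a encodes exportin 1 (CRM1), the receptor for leucine-rich export signals. It was at 164 FPKM in WT at 0 hpf, 273 in WT at 6 hpf, 27.3 in Mybx1 at 0 hpf and 29.8 in Mybx1 at 6 hpf. It was 5.99-fold lower in the mutant egg (5.54 to 6.49) and 9.14-fold lower in Mybx1 at 6 hpf (8.44 to 9.92), with log2 differences of -2.54 and -3.15. In the egg 86 of 15376 rows lay further below WT. Within each genotype xpo1a stayed inside the threshold over time, with a ratio of 1.67 for WT (1.60 to 1.73) and of 1.09 for Mybx1 (0.98 to 1.22). With median-ratio scaling xpo1a was past the threshold in WT.

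A further row carries the symbol XPO1 (ENSDARG00000063229). It was alike in the eggs, 29.6 FPKM in WT and 29.9 in Mybx1, and at 6 hpf it was at 134 in WT and 39.6 in Mybx1. It rose 4.53-fold in WT (4.17 to 4.93), and in Mybx1 its log2 change was 0.39. At 6 hpf it was 3.39-fold lower in Mybx1 (3.12 to 3.68). Together these genes held 193 FPKM in the WT egg and 57.2 in the mutant egg, and 407 and 69.4 FPKM at 6 hpf. The share of xpo1a in that sum was 84.7% in the WT egg (83.6 to 85.7) and 47.7% in the mutant egg (45.1 to 50.3). The sources used here do not say how reads matching both genes were counted, so the split between them is uncertain, as it is for TNPO2 and tnpo2a.

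**Figure D5:**
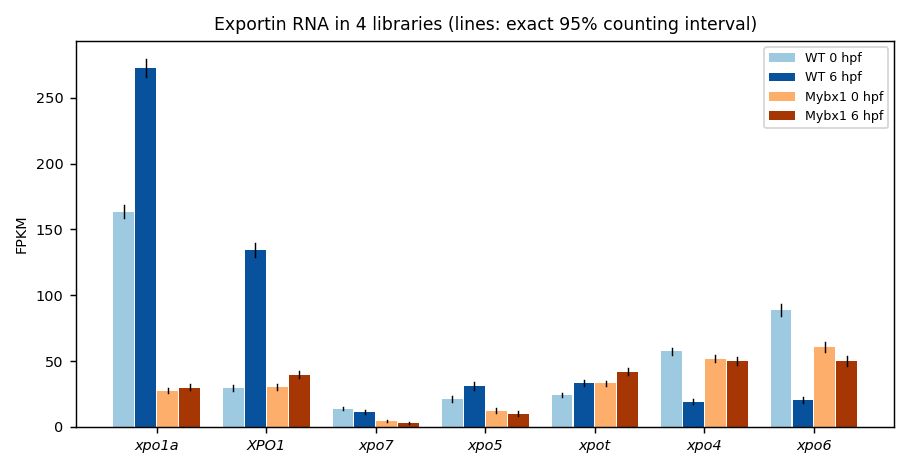
FPKM of the 7 exportin genes in the 4 libraries, with black lines for the exact 95% counting interval of each value. Both Mybx1 bars of xpo1a stand near 30 FPKM beside 164 and 273 in WT, and XPO1 is high in WT at 6 hpf only.

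The other exportins fell into 3 patterns. The gene xpo7 was low in both mutant libraries, at 13.8 and 11.1 FPKM in WT and at 4.23 and 2.90 in Mybx1, 3.26-fold lower in the egg (2.69 to 3.96) and 3.84-fold lower at 6 hpf (2.99 to 4.97). It was the second of the 2 members called between the eggs with FPKM scaling. The exporter of microRNA precursors, xpo5, was at 20.8 and 30.8 FPKM in WT and at 12.1 and 9.95 in Mybx1. It was 3.10-fold lower in Mybx1 at 6 hpf (2.50 to 3.87) and 1.72-fold lower in the egg (1.42 to 2.1).

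Low in WT at 6 hpf alone were xpo4 and xpo6, the latter an exporter of actin with profilin. Levels of xpo6 were 88.6 and 20.4 FPKM in WT and 60.7 and 50.1 in Mybx1, and those of xpo4 57.3 and 19.0 in WT and 51.7 and 49.9 in Mybx1. They fell 4.34-fold (3.81 to 4.96) and 3.02-fold (2.71 to 3.37) in WT, the call for xpo4 being lost with median-ratio scaling (log2 -0.83), and were 2.45-fold (2.13 to 2.84) and 2.63-fold higher in Mybx1 at 6 hpf (2.35 to 2.95). Both of these last calls were lost with median-ratio scaling (0.52 and 0.62). The tRNA exporter xpot stayed within 2-fold with FPKM scaling, at 24.1 and 33.2 FPKM in WT and at 32.9 and 42.0 in Mybx1. At 6 hpf exportin RNA summed to 521 FPKM in WT and 224 in Mybx1. The lower sum in Mybx1 lay in xpo1a and XPO1, which together held 407 FPKM in WT and 69.4 in Mybx1. Of the rest, xpo4, xpo6 and xpot had higher FPKM in Mybx1 there, and xpo5 and xpo7 lower.

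The time changes in WT and in Mybx1 share no library. Of the 10 members that fell in WT, 3 fell in Mybx1 and 7 stayed within 2-fold, and of the 6285 rows of the whole table that fell in WT, 87.4% stayed within 2-fold in Mybx1. Of the 4 members that rose in WT, 3 stayed within 2-fold in Mybx1, against 68.5% of 3283 rows. Among those 3 is kpna3, which passed the filter through WT at 6 hpf alone. As a ratio of FPKM it rose 6.65-fold in Mybx1 (2.26 to 26.5), from 0.14 to 0.91 FPKM. With a pseudocount of 0.1, 2 members rose in Mybx1 rather than 1. With FPKM scaling no member was past the threshold in Mybx1 alone, and none in opposite directions. Across the 47 members the changes in WT and Mybx1 had a Pearson correlation of 0.64 and a slope of 0.25, against 0.58 and 0.24 across all rows, as a description across genes, which are not independent. Levels of the 47 in Mybx1 at 6 hpf correlated with those of the WT egg at 0.90 on the log2 scale, against 0.87 across all rows. With those of WT at 6 hpf they correlated at 0.64, against 0.65 across all rows.

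Between the eggs small differences leaned one way. Of the 47 members 36 were lower in Mybx1 (76.6%), against 41.6% of all rows, with a median of -0.14, against 0.06. The counting interval of the ratio left out 1 for 36 of the 47, but these are not the same 36 genes. Members higher in the Mybx1 egg, such as IPO13, nup210 and xpot, are among them, and some lower ones, such as nup98 and nup153, are not. The depth is thus enough to see differences well under 2-fold between these libraries, while the spread between clutches is not known. The median stayed negative under all 7 alternative settings, between -0.13 and -0.23.

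Other genes of the nuclear transport system, named by role and not by the symbol rule, were read for comparison, with FPKM scaling only. The exportin that returns importin alpha to the cytoplasm, cse1l, was at 170 and 30.1 FPKM in WT and at 161 and 38.2 in Mybx1. In WT it fell 5.63-fold (5.0 to 6.36), and the fall in Mybx1 was 4.21-fold (3.78 to 4.71), so it fell in both genotypes as kpna2 and kpna7 did. The adaptor of small nuclear RNPs, snupn, was at 200 and 38.6 FPKM in WT, a 5.18-fold fall (4.56 to 5.90), and at 212 and 207 in Mybx1.

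Of 11 other nucleoporin rows 3 fell in WT and none rose, beside 40.9% and 21.4% of all rows. All 11 stayed within 2-fold in Mybx1 over time and between the eggs, as did 85.4% and 85.8% of all rows. At 6 hpf Mybx1 was above WT in 2 of the 11, beside 39.6% of all rows, and below it in another 2, beside 19.1%. Higher there were the mRNA export factor gle1, at 19.5 FPKM for WT and 104 for Mybx1 (5.35-fold, 4.63 to 6.20), and the scaffold gene aaas, at 3.79 and 14.7 (3.87-fold, 2.01 to 8.04). Lower were both rows that share the symbol TPR, a basket filament, at 86.3 and 84.7 FPKM in WT and 40.7 and 33.6 in Mybx1. The third to fall in WT was ahctf1, which seeds pores on chromatin, from 93.2 to 38.9 FPKM, beside 80.4 and 43.8 in Mybx1.

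In the Ran system 2 of 9 genes fell in WT and none rose, against 40.9% and 21.4% of all rows. Those that fell were rangrf, a Ran-binding protein gene, from 39.0 to 1.94 FPKM, and nutf2l, a carrier of Ran, from 139 to 23.5. In Mybx1 rangrf alone fell, from 35.6 to 13.2 FPKM, where 6.78% of all rows fell. Of 15 mRNA export rows 4 fell in WT and 1 in Mybx1, against 40.9% and 6.78% of all rows. In both genotypes nxf1a, a copy of the main mRNA export receptor, fell, from 27.6 to 0.92 FPKM in WT and from 32.0 to 12 in Mybx1. Its other copy, nxf1b, was at 23.1 and 39.5 FPKM in WT and at 27.0 and 17.8 in Mybx1. Of the lists read here, nuclear lamina and envelope rows had the widest range of change in WT. Over time 3 of 16 were up and 4 down in WT, against 21.4% and 40.9% of all rows. None was past 2-fold in Mybx1, where 85.4% of all rows stayed within it. The SUN-domain gene sun1a fell from 270 to 6.02 FPKM in WT, beside 284 and 144 in Mybx1, and the egg lamin lmnl3 from 157 to 13 in WT, while in Mybx1 it was at 203 and 154. The B-type lamin lmnb2 went from 72.1 to 355 FPKM in WT and stood at 180 and 217 in Mybx1, 2.50-fold above WT in the egg (2.35 to 2.65).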

How the data were processed

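Total RNA of 4 groups of zebrafish embryos was sequenced after depletion of ribosomal RNA, with 1 library per group, and the authors deposited 1 table of FPKM values per gene. The submitters' processing notes name HTSeq 0.6.1, TopHat2 2.0.12, Bowtie2 2.2.3 and the build GRCz10, with no role for each. For the annotation, strand setting, FPKM formula and handling of reads that match several genes, the steps are not given in the sources used here. Each FPKM is a share of its library, so a change in total RNA per embryo leaves no trace in them. No genome or annotation of that build was used, so no coordinates or sequences are given.

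Groups were taken from the labels, and 0 columns belonged to other samples. Symbols came from a gene table by Ensembl ID, spelled as in RefSeq where it lists them, with capitals for the human form. FPKM steps gave each library's total and the smallest whole read number for each gene, from which exact 95% counting intervals of ratios were computed. Those intervals and totals cover counting error only, since reads without molecular identifiers are not independent molecules. Where the true read number is a multiple of the smallest, the interval is too wide. Intervals of shares are approximate. Differences were taken on log2(FPKM + 1), which understates changes of low genes, over rows with a mean FPKM of at least 1, and were called at 2-fold. Recovery and calls were tested on simulated data. Alternatives were pseudocounts of 0.1 and 5, a mean FPKM of at least 5, no filter, a filter on the 2 libraries compared, TPM and median-ratio scaling. By the rule for named genes any member could be named, with the value in every library for members past 2-fold in a comparison and for the 3 of highest mean FPKM in each role. Genes of the other lists, chosen by role, could be named where past 2-fold, and only some of these are. The members and lists were chosen with earlier results of these data known. Python 3.11.15, numpy 2.4.6, pandas 2.3.3, scipy 1.17.1 and matplotlib 3.10.9 were used.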

Additional observations from a re-analysis of the deposited data

How the results depend on the processing

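With 1 library per group the spread between embryos is unknown, and no library could be left out. No paired analysis was possible because each group has 1 library. All 38 single-gene calls made among the members with FPKM scaling kept their direction under the 7 settings. Calls gained with median-ratio scaling are named above. Of the 38 calls made with FPKM scaling, 11 were no longer past 2-fold with median-ratio scaling, 5 with a pseudocount of 5, 1 with TPM and 0 under the other 4. With median-ratio scaling 16 members rose and 5 fell in WT (median 0.64), 3 were higher and 22 lower in Mybx1 at 6 hpf (median -0.86), and 4 were lower in the Mybx1 egg. With TPM the median change in WT was -0.35. The member median for Mybx1 against WT at 6 hpf changed sign with TPM, to 0.12 from -0.10 with FPKM. There 10 members were higher and 8 lower, beside 45.6% and 17.2% of all rows. With a pseudocount of 0.1, 2 members rose in Mybx1 and 4 were lower in its egg, and with a pseudocount of 5, 0 rose in Mybx1. The filters on low values moved no count of members by over 1.5 times. Genes with few reads, such as kpna3 in Mybx1, are limited by depth.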
